A study of Homo sapiens with 2 samples.

Results

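The HOX genes are the protein-coding genes of the HOXA, HOXB, HOXC and HOXD clusters, and they were chosen by symbol alone, as HOXA, HOXB, HOXC or HOXD followed by a number. Of the 39 genes of that rule, 38 were analysed, among 20037 protein-coding genes in all. They comprised 10 HOXA genes on chromosome 7, 10 HOXB genes on chromosome 17, 9 HOXC genes on chromosome 12 and 9 HOXD genes on chromosome 2. H3K27ac, acetylation of a lysine of histone H3 that marks active promoters and enhancers, was mapped by chromatin immunoprecipitation and sequencing in F36P, an established human erythroleukaemia cell line. Cells that overexpressed ERG had received the MSCV-PIG-AM-ERG retroviral plasmid, and the control cells, labelled WT, the MSCV-PIG plasmid without ERG. What AM stands for is not stated in the labels. Both populations had been kept in puromycin at 1 µg/ml for 4 days. ERG is an ETS-family transcription factor, and the series asked how it inhibits erythroid differentiation. Each group held 1 library, named for its plasmid, ERG or Vector. All values therefore describe 2 libraries, and no test between the groups was possible. Intervals cover counting error only, of fragments at a peak or of genes taken as independent.

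HOX genes encode homeodomain transcription factors that assign position along the body axis, and within a cluster the genes lie in the order in which they are used from head to tail. In blood, stem and progenitor cells use mainly HOXA and HOXB genes and turn them down as they mature, and raised HOXA expression is known from several acute leukaemias. Trithorax-type complexes built on KMT2A keep HOX genes active, whereas Polycomb complexes keep them silent and place a methyl mark on the same lysine that H3K27ac occupies, so a single histone tail carries one or the other.

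The ERG library had 19671 peaks over 15.0 Mb and the Vector library 9161 peaks over 5.30 Mb. The genome-wide background, or genome level, stood at 2.31 fragments in the ERG library, against 1.60 in the Vector library, a ratio of 1.44. The genome level, which stands for depth here, was thus higher in the ERG library. Of ERG-library peaks, 58.9% had no Vector-library counterpart, against 8.97% of Vector-library peaks with no ERG-library counterpart. The ERG gene had 6 peaks within 50 kb in the ERG library, against 1 in the Vector library. Of 9 erythroid markers, 8 had a peak within 1 kb of a gene end in the ERG library, against 7 in the Vector library, beside 45.8% (ERG library) and 30.5% (Vector library) of all protein-coding genes, with EPOR, TFRC, KLF1 and HBG2 among those marked in both and ALAS2 marked in the ERG library alone. Of 12 markers of T cells, B cells, epithelium, fibroblasts, neurons and endothelium, CD79A alone had one in the ERG library and none had one in the Vector library. Genome level, list length and ERG overexpression went together here and cannot be told apart at a peak found in 1 library.

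Few HOX genes had an H3K27ac peak at a gene end in either library. A gene-end peak, a peak that overlaps the kilobase either side of an end of the gene record, was found in the ERG library at 2 of the 38 HOX genes, HOXB2 and HOXB9. That is 5.26% (exact Clopper-Pearson 95% interval 0.644 to 17.7), against 45.8% of all protein-coding genes in the ERG library. In the Vector library it was found at 1 HOX gene, HOXB9, which is 2.63% (0.0666 to 13.8), against 30.5% of all protein-coding genes. HOXB9 was therefore the single HOX gene with a peak in both libraries, a class that held 30.2% of all genes. HOXB2 was the single HOX gene with a peak in the ERG library alone, a class that held 15.6% of all genes. No HOX gene had a peak in the Vector library alone, a class that held 0.354% of all genes. At the remaining 36 HOX genes neither library had a gene-end peak. The intervals take the genes as independent draws, though they are neighbours within clusters and some share a start. They describe the counts and test nothing. A missing peak means that none passed the peak caller's threshold at this depth, not that acetylation was absent.

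Counted over the 4 cluster windows, each running from 50 kb before to 50 kb after the analysed genes and 921 kb long in all, the ERG library had 6 peaks and the Vector library 1. They covered 4512 bp, or 0.490% of that length, in the ERG library and 979 bp, or 0.106%, in the Vector library. Over chromosomes 1 to 22, X and Y, taken to the last gene record of each, peaks covered 0.472% in the ERG library, against 0.168% in the Vector library. Peaks per 100 kb numbered 0.652 in the HOX windows and 0.615 genome-wide in the ERG library, against 0.109 in the HOX windows and 0.290 genome-wide in the Vector library. By length, the ERG-library peaks of the windows were thus near the genome average, whereas the Vector-library peak was under it. The median length covered near single HOX genes, given below, was nevertheless lower than that over all genes in both libraries. The windows of neighbouring genes overlap, so 1 peak can count at several genes. In the ERG library the HOXD peak of 335 bp counted in this way at all HOXD genes. The HOXB window, with 1.06% covered in the ERG library, against 0.326% in the Vector library, held 4 of the 6 ERG-library peaks and the only Vector-library peak. The HOXA window and the HOXD window each held 1 ERG-library peak and no Vector-library peak, and the HOXC window held none in either library. Around single genes, the median length covered by peaks within 50 kb of a HOX gene's ends was 335 bp in the ERG library, against 0 bp in the Vector library. Over all protein-coding genes that median was 1376 bp in the ERG library, against 404 bp in the Vector library. No base was covered at 15 of 38 HOX genes in the ERG library and at 31 of them in the Vector library. The same held for 26.0% of all genes in the ERG library and 41.5% of them in the Vector library.

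**Figure D1:**
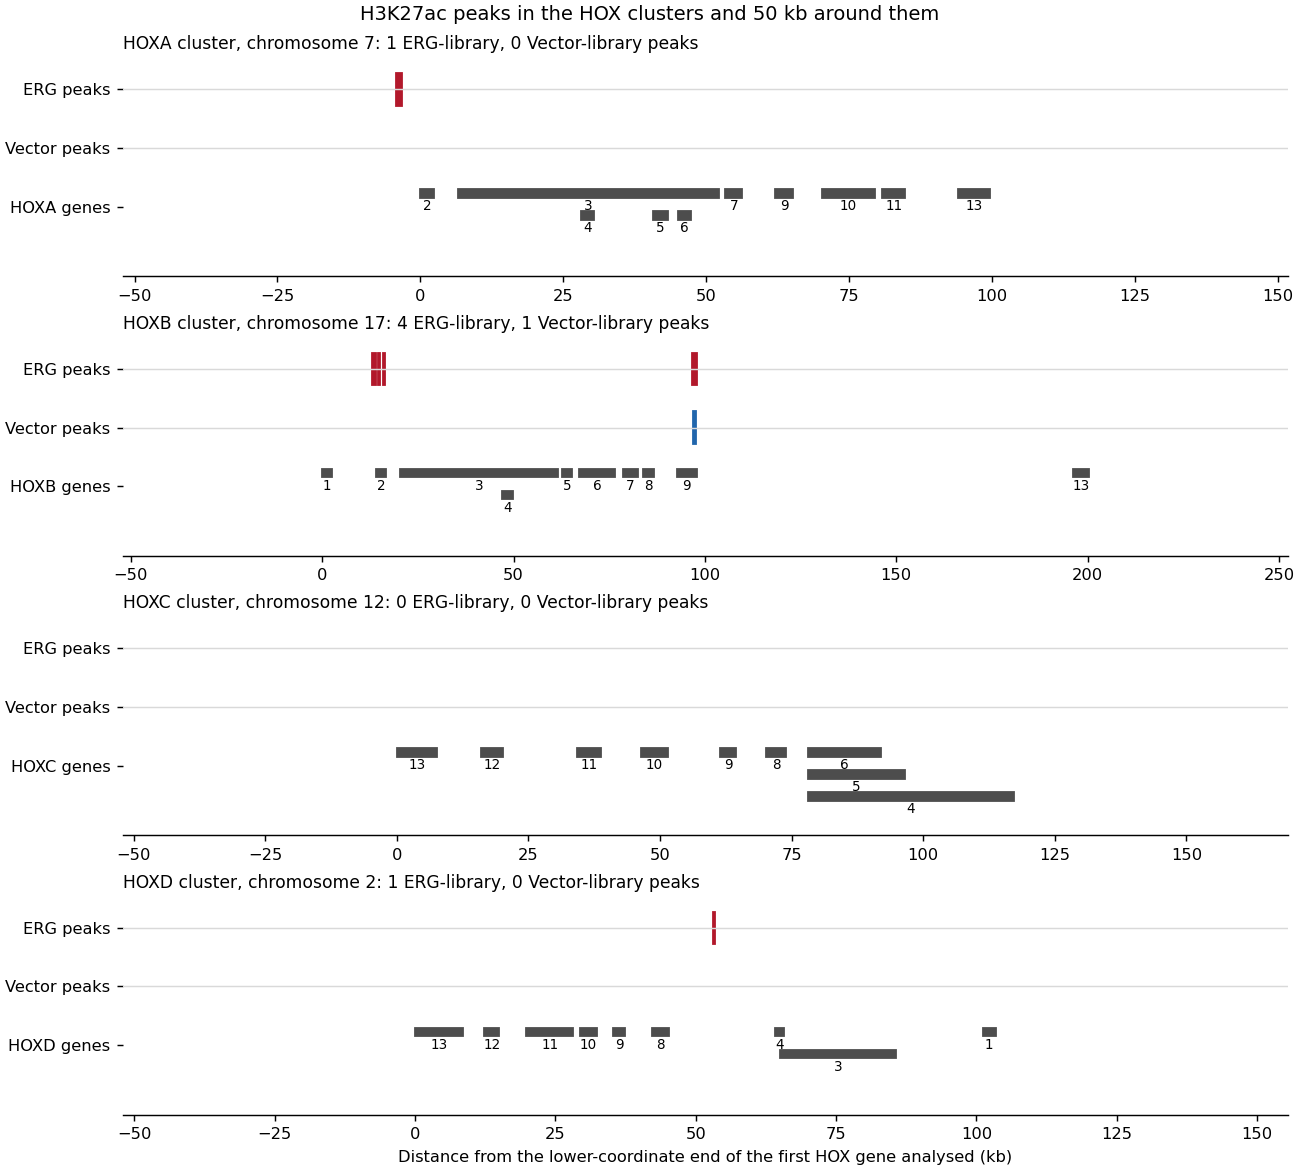
H3K27ac peaks (red, ERG library; blue, Vector library) and HOX gene records (grey, numbered by paralogue group) against the distance in kb from the lower-coordinate end of the first HOX gene analysed in each cluster, with 50 kb of margin. The ERG library has 4 peaks in the HOXB window and 1 each in the HOXA and HOXD windows, the Vector library has 1 at HOXB9, and the HOXC window is empty.

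Sequence inside the HOXB2 record is shown through its antisense neighbour, because a promoter window of HOXB2 itself or of HOXB9 was not in the RefSeq table used. HOXB-AS1 is a long noncoding RNA read from the strand opposite to HOXB2. Its promoter window, 250 bases before to 50 bases after the start at chr17:48544101-48544400 on the plus strand (RefSeq, GRCh38.p14), ends on the first base of an ERG-library peak, so that 1 base overlaps. The window of HOXB1, a hindbrain patterning gene, at chr17:48530962-48531261 on the minus strand, stands for the same cluster with no peak and lies 10181 bp from the nearest ERG-library peak. CG dinucleotides, the sites of DNA methylation, are in capitals and all other bases in lower case.
HOXB-AS1: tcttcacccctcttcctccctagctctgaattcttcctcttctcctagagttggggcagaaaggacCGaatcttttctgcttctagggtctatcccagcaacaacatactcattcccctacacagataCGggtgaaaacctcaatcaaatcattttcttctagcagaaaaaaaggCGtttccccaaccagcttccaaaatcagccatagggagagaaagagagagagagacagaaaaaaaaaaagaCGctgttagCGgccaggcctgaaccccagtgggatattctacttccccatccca
HOXB1: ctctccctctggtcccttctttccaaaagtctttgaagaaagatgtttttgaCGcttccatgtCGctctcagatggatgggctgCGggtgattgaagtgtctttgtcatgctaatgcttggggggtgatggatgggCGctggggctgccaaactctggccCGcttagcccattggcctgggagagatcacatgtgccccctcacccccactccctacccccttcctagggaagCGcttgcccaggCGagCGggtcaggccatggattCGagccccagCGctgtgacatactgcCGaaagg

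The HOXB-AS1 window held 5 CG dinucleotides at 46.7% GC and the HOXB1 window 11 at 58.0% GC. The number of CG seen over that given by the base composition, the CpG ratio, was 0.323 for HOXB-AS1 and 0.436 for HOXB1. Both lay under the median of 0.737 over 22199 promoter windows of protein-coding genes. The HOXB-AS1 window lay between the upper and the middle of the ERG-library peaks at HOXB2.

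Windows from the other clusters were picked after their values were seen, to show 3 starts with no peak nearby and different CpG content. HOXA13, a gene of limb and urogenital patterning at the far end of its cluster, is given by chr7:27200042-27200341 on the minus strand. HOXC4, the anterior gene of its cluster, is given by chr12:54016638-54016937 on the plus strand. HOXD1, at the anterior end of HOXD, is given by chr2:176188418-176188717 on the plus strand. All 3 are from RefSeq, GRCh38.p14, with CG in capitals.
HOXA13: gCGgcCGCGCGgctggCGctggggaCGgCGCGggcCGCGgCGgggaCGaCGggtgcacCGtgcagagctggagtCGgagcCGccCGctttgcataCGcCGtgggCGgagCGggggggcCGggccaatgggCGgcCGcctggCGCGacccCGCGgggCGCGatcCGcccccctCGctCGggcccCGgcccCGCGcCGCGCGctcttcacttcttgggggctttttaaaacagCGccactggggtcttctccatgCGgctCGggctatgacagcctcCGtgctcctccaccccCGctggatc
HOXC4: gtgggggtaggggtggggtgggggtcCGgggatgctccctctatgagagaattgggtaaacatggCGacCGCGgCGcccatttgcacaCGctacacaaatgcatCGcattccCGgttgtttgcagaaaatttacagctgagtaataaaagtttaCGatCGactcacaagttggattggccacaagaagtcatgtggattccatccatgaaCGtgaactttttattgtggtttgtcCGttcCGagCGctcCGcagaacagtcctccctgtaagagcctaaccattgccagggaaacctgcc
HOXD1: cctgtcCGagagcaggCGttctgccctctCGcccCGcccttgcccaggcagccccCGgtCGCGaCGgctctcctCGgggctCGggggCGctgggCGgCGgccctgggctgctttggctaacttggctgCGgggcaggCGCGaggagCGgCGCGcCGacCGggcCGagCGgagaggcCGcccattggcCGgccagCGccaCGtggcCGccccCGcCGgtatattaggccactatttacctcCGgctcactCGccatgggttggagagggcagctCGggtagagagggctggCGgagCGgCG

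The HOXA13 window held 44 CG dinucleotides with a CpG ratio of 1.01, the HOXD1 window 36 with a ratio of 0.871 and the HOXC4 window 15 with a ratio of 0.755. The nearest ERG-library peak lay 102912 bp from the HOXA13 window, 47554 bp from the HOXD1 window and 263001 bp from the HOXC4 window.

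The clusters also encode microRNAs of the miR-10 and miR-196 families, which are shown because they are the short products whose genes lie between the HOX genes. The seed, bases 2 to 8 from the 5′ end, which pairs with target messages, is in capitals (RefSeq, GRCh38.p14).
hsa-miR-10a-5p: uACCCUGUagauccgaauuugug
hsa-miR-196a-5p: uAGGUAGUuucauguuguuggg
hsa-miR-196b-5p: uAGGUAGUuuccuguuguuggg

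The miR-196a-5p and miR-196b-5p sequences share the seed AGGUAGU, and both are known to repress HOX messages, HOXB8 in particular. None of their genes had a peak at an end in either library. MIR196A1, between HOXB9 and HOXB13, lay 6.13 kb from the nearest ERG-library peak and 6.22 kb from the nearest Vector-library peak, which are the pair of peaks at HOXB9. MIR196A2, in HOXC, lay 288 kb from an ERG-library peak and 289 kb from a Vector-library peak. MIR196B, in HOXA, lay 72.3 kb from an ERG-library peak and 493 kb from a Vector-library peak. MIR10A, near HOXB4 and the source of miR-10a-5p, lay 35.0 kb from an ERG-library peak and 45.3 kb from a Vector-library peak. MIR10B in HOXD and MIR615 in HOXC, whose sequences are not shown, also lacked a peak at an end. MIR10B lay 9.44 kb from an ERG-library peak and 119 kb from a Vector-library peak, and MIR615 246 kb and 247 kb.

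HOXB9, a posterior gene of the HOXB cluster, carried the one H3K27ac site of the HOX clusters that both libraries shared. The ERG-library peak spanned chr17:48625256-48626361, 1106 bp that include the gene's start. The Vector-library peak spanned chr17:48625288-48626266, 979 bp whose edge lay 92 bp inside that start. The whole Vector-library peak overlapped the ERG-library peak, and the summits lay 25 bp apart, 255 bp inside the start in the ERG library and 230 bp inside it in the Vector library.

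At the HOXB9 summit there were 39 fragments over a local background of 8.57 in the ERG library, against 29 fragments over 8.26 in the Vector library. The deposited fold was 4.18 in the ERG library, against 3.24 in the Vector library, with −log10 q-values of 11.2 in the ERG library, against 5.16 in the Vector library. The ratio of summit fragments, ERG over Vector library, was 1.34 (exact conditional 95% interval 0.811 to 2.25), an interval that includes 1 and the ratio of genome levels, 1.44. The median ratio over 8071 peaks shared by the libraries was 2.07, with quartiles of 1.67 and 2.5, and 10.9% of them had a lower ratio than HOXB9. Above local background the HOXB9 ratio was 1.47. A difference in acetylation at HOXB9 beyond the ratio of genome levels was not detectable from these counts. In a bulk population, fewer cells with the mark and less of the mark per cell cannot be told apart.

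HOXB2, an anterior gene with a known role in the hindbrain, had a row of 3 peaks in the ERG library, against none in the Vector library. The peak nearest the start spanned chr17:48544400-48544874, with its edge 235 bp and its summit 472 bp inside the gene, and also overlapped the HOXB-AS1 record. It had 55 fragments over a local background of 22, a deposited fold of 2.43 and a −log10 q-value of 6.24. The next peak, chr17:48543122-48543639, lay inside the gene and had 55 fragments over 21.4, with a fold of 2.5 and a −log10 q-value of 6.65. The outermost, chr17:48541442-48542537, lay just beyond the downstream end of the record and had 47 fragments over 19.4, with a fold of 2.35 and a −log10 q-value of 4.82.

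The recovered local background of the HOXB2 peaks was raised. It was 8.38 to 9.52 times the genome level of the ERG library, higher than at 90.0 to 92.8% of its peaks. The use of an input is not given, so whether this background came from an input or from the library itself is not known. The nearest Vector-library peak lay 80.7 to 83.1 kb from the HOXB2 peaks, at HOXB9. Calls of this strength were often unmatched: in the tenth of the ERG list with like −log10 q-values, 11.6% of peaks had a Vector-library counterpart for the outermost HOXB2 peak and 17.5% for the other 2. With the fragments of the ERG library divided by 2.07, the ratio of shared peaks, and its background by 1.44, none of the 3 passed the weakest deposited Vector-library −log10 p-value of 3.98, with values of 2.39, 2.55 and 1.96 in the order described. With both divided by 1.44, all 3 passed, at 6.58, 6.89 and 5.33. The call of HOXB2 in the ERG library alone therefore depended on how the libraries were scaled. The scaling by 2.07 lowers the fold of any peak by construction, because it divides fragments by more than background.

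**Figure D2:**
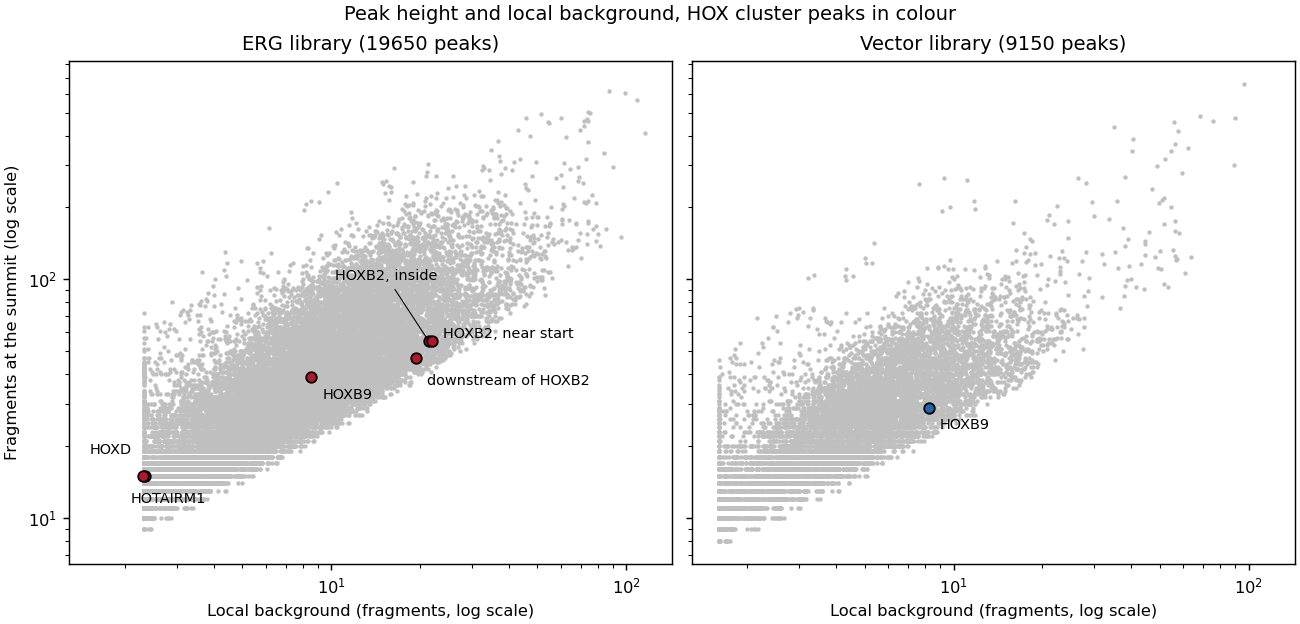
Fragments at the summit against local background in fragments, both on log axes, for 19650 ERG-library peaks (left) and 9150 Vector-library peaks (right), in grey, with the HOX cluster peaks in colour. The 3 HOXB2 peaks lie at backgrounds of 19.4 to 22 fragments, HOXB9 lies near 8.57 in the ERG library, against 8.26 in the Vector library, and the HOTAIRM1 and HOXD peaks lie at the genome level of 2.31.

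The other HOXB genes lacked a gene-end peak in both libraries. HOXB1 lay 10.4 kb from the nearest ERG-library peak and 94.3 kb from the nearest Vector-library peak, measured from its start. HOXB8 lay 9.96 kb from an ERG-library peak and 10.0 kb from a Vector-library peak, both at HOXB9. HOXB4, known for expanding blood stem cells when overexpressed, lay 33.5 kb from an ERG-library peak and 46.9 kb from a Vector-library peak. The starts of HOXB3, HOXB5, HOXB6 and HOXB7 lay between 14.2 and 35.0 kb from an ERG-library peak and between 14.3 and 35.0 kb from a Vector-library peak. The HOXB3 record is 41372 bp long, and its downstream end, at chr17:48548870, lay nearer to the HOXB2 peaks of the ERG library. HOXB13, a prostate and hindgut gene set apart from the rest of the cluster, lay 102 kb from a peak in both libraries.

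The HOXA cluster, whose HOXA9 and HOXA10 are the members best known from leukaemia, had a single peak, in the ERG library. It spanned chr7:27096149-27097130 and overlapped HOTAIRM1, a long noncoding RNA at the anterior end of the cluster known from myeloid maturation. The summit held 15 fragments over a local background of 2.34, which is 1.01 times the genome level, with a deposited fold of 4.79 and a −log10 q-value of 5.64. It was a wide but low peak, wider than 73.7% of ERG-library peaks and with more fragments than 6.15% of them. Of ERG-library peaks of like −log10 q-value, 11.6% had a Vector-library counterpart, and the nearest Vector-library peak lay 566 kb away. Scaled to the Vector genome level its −log10 p-value was 5.94 and passed 3.98, and scaled by the ratio of shared peaks it was 3.55 and did not.

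HOXA2, the nearest HOXA gene analysed, started 5.55 kb from that peak in the ERG library and 560 kb from any peak in the Vector library. In the ERG library the distance was 68.4 kb for HOXA9, 82.7 kb for HOXA10, 88.1 kb for HOXA11 and 103 kb for HOXA13, the last gene of the cluster. HOXA3, HOXA4, HOXA5, HOXA6 and HOXA7 lay 33.6 to 59.5 kb from it in the ERG library, against 506 to 532 kb from any peak in the Vector library. These distances are from the upstream end of each record, and HOXA3 has internal starts nearer to the ERG-library peak, as at chr7:27113842. In the Vector library HOXA9 lay 497 kb, HOXA10 483 kb, HOXA11 477 kb and HOXA13 462 kb from the nearest peak. In both libraries the starts of all 10 HOXA genes analysed fell in one stretch with no peak, 565 kb long in the ERG library, against 1460 kb in the Vector library. The median stretch between peaks of chromosome 7 was 59.5 kb in the ERG library, against 174 kb in the Vector library. Of the stretches of that chromosome, 89.9% were shorter than the HOXA one in the ERG library, against 90.3% in the Vector library.

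The HOXD cluster, best known for limb and trunk patterning, had 1 peak in the ERG library, against none in the Vector library. It spanned chr2:176140530-176140864, overlapped no gene record, and lay 10686 bp before the start of HOXD4. With 335 bp it was narrower than most, only 10.6% of ERG-library peaks being narrower. It had 15 fragments over a local background of 2.31, which is 1.00 times the genome level, a deposited fold of 4.83 and a −log10 q-value of 5.70. Of ERG-library peaks of like −log10 q-value, 11.6% had a Vector-library counterpart. Scaled to the Vector genome level its −log10 p-value was 5.98 and passed 3.98, and scaled by the ratio of shared peaks it was 3.58 and did not.

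HOXD8 started 10.8 kb from the HOXD peak and HOXD3 11.7 kb from it in the ERG library, against 140 kb and 117 kb from the nearest peak in the Vector library. HOXD9, HOXD10, HOXD11 and HOXD12 lay 17.8 to 40.7 kb from a peak in the ERG library, against 147 to 170 kb in the Vector library. HOXD13, a gene of the digits at the posterior end, lay 53.0 kb from a peak in the ERG library, against 182 kb in the Vector library. HOXD1 lay 47.8 kb from a peak in the ERG library, against 80.8 kb in the Vector library. The longest stretch without a peak around the cluster was 138 kb in the ERG library, with the starts of 6 of the 9 genes in it, and 1088 kb in the Vector library, with all 9. Of the stretches of its chromosome, 73.8% were shorter in the ERG library, against 89.8% in the Vector library.

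The HOXC cluster, a further set of trunk, skin and limb patterning genes, had no peak in either library. Its 9 genes lay in a stretch without a peak of 603 kb in the ERG library, against 605 kb in the Vector library. Of the stretches of its chromosome, 94.6% were shorter in the ERG library, against 89.2% in the Vector library. HOXC13, a hair follicle gene, lay nearest to a peak, at 262 kb in the ERG library, against 263 kb in the Vector library. HOXC11 lay farthest, at 296 kb in the ERG library, against 297 kb in the Vector library. HOXC8, HOXC9, HOXC10 and HOXC12 lay 271 to 295 kb from a peak in the ERG library, against 272 to 296 kb in the Vector library. HOXC4, HOXC5 and HOXC6, whose records share a start, all lay 263 kb from an ERG-library peak and 264 kb from a Vector-library peak.

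Over all 38 genes, the nearest peak to the start was closer in the ERG library every time, which a longer list favours at any gene. The difference was over 10 kb for 22 genes, namely all 10 HOXA genes, all 9 HOXD genes and 3 HOXB genes. These 22 are not separate observations. In the ERG library the HOXA distances all ran to the HOTAIRM1 peak, the HOXD distances to the HOXD peak and the 3 HOXB distances to the HOXB2 peaks. With the ERG list limited to its 9161 highest-scoring peaks, only the HOXB9 peak was left in the windows. For the other 16, which were all 9 HOXC genes and 7 HOXB genes, the distances in the libraries were within 1 kb of each other. The median distance was 47.2 kb in the ERG library, against 222 kb in the Vector library.

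**Figure D3:**
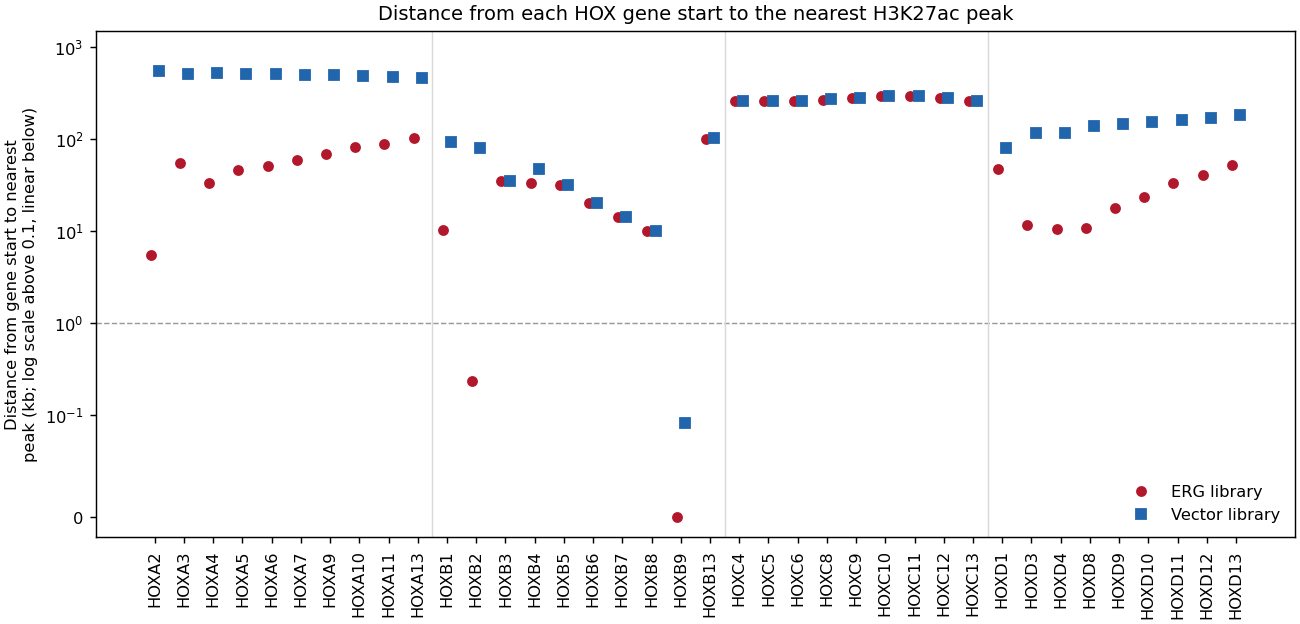
Distance in kb from each HOX gene start to the nearest peak of the ERG library (red circles) and of the Vector library (blue squares), log scale above 0.1 kb and linear below, with the dashed line at 1 kb. A start is the upstream end of the gene record. HOXB2 (ERG library) and HOXB9 (both libraries) lie under the line, HOXC genes lie at 262 to 297 kb in both libraries, and HOXA genes lie at 5.55 to 103 kb in the ERG library and 462 to 560 kb in the Vector library.

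Summed over the clusters, peaks outside them became more frequent with distance, but single clusters differed. In the ERG library there were 0.960 peaks per 100 kb between the outer ends of the genes, 0.250 within the first 50 kb outside, 0.50 from 50 to 100 kb, 0.833 from 100 to 250 kb and 1.25 from 250 to 500 kb. In the Vector library the same zones had 0.192, 0, 0.250, 0.50 and 0.550 peaks per 100 kb. From the innermost to the outermost zone outside, the ERG library had 1.0, 0, 0.333 and 0.20 peaks per 100 kb around HOXA, 0, 0, 2.0 and 1.40 around HOXB, 0, 0, 1.0 and 3.0 around HOXC, and 0, 2.0, 0 and 0.40 around HOXD. The rise was thus that of HOXB and HOXC. In the Vector library the outermost zone had 0.20 around HOXA, 0.40 around HOXB, 1.60 around HOXC and 0 around HOXD. The value inside the clusters, in both libraries, came from HOXB, apart from the HOXD peak in the ERG library.

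The protein-coding neighbours within 50 kb lacked gene-end peaks in both libraries. They were EVX1 and EVX2, homeobox genes beside HOXA and HOXD, PRAC1 and PRAC2 between HOXB9 and HOXB13, and TTLL6 beyond HOXB13. Farther out, some flanking genes had peaks. MTX2, a mitochondrial import gene 78.5 kb from HOXD, CALCOCO2, an autophagy receptor gene 102 kb from HOXB, and CBX5, a heterochromatin protein gene 175 kb from HOXC, had gene-end peaks in both libraries. SKAP2, 236 kb from HOXA, and LNPK, 84.7 kb from HOXD, had one in the ERG library alone. Neither library had one at SKAP1, 83.5 kb from HOXB, or at SNX10, 726 kb from HOXA. The same held for SMUG1, CALCOCO1 and ATP5MC2, which lie 102 kb, 211 kb and 257 kb from HOXC.

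Noncoding genes of the clusters had few peaks, at shares not tested against their background. Of 24 listed, 2 had a gene-end peak in the ERG library, or 8.33%, and none had one in the Vector library. Over 20216 long noncoding RNA and miRNA genes the share was 14.0% in the ERG library, against 8.69% in the Vector library. The marked ones were HOXB-AS1 and HOTAIRM1, through the peaks given above. HOTAIR in HOXC, a transcript known for its link to Polycomb, lay 286 kb from the nearest peak in both libraries. HOTTIP, at the posterior end of HOXA and tied to KMT2A complexes, lay 103 kb from a peak in the ERG library, against 455 kb in the Vector library. HAGLR, in HOXD, lay 32.3 kb from a peak in the ERG library, against 80.5 kb in the Vector library.

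By their median CpG ratio, the HOX promoters in the RefSeq table were not poor in CpG. The table held 27 windows of 20 HOX genes, at 26 distinct starts since HOXC4 and HOXC5 share one, and held none of HOXB2 or HOXB9, the genes with a peak at the start. Their median CpG ratio was 0.849, against 0.737 over all 22199 windows of protein-coding genes, and it ran from 0 at an internal HOXA3 start to 1.27 at HOXA9. Of the 27, 13 were CpG-rich, here at least 55% GC with a CpG ratio of at least 0.65, which is 48.1% against 53.9% of all windows. None of the 27 had a peak within 1 kb of its start in either library, a count fixed by which genes the table holds. Of the 11965 CpG-rich windows of all genes, 65.7% had one in the ERG library, against 46.4% in the Vector library. HOXA13, HOXA6, HOXA4 and HOXD8 are CpG-rich examples, with CpG ratios of 1.01, 1.06, 1.03 and 0.887. Median GC was 58.0% in the 27 windows, against 62.3% in all windows of protein-coding genes. The 20 genes were 9 of HOXA, 8 of HOXD, 2 of HOXC and 1 of HOXB, so the values describe mainly HOXA and HOXD.

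**Figure D4:**
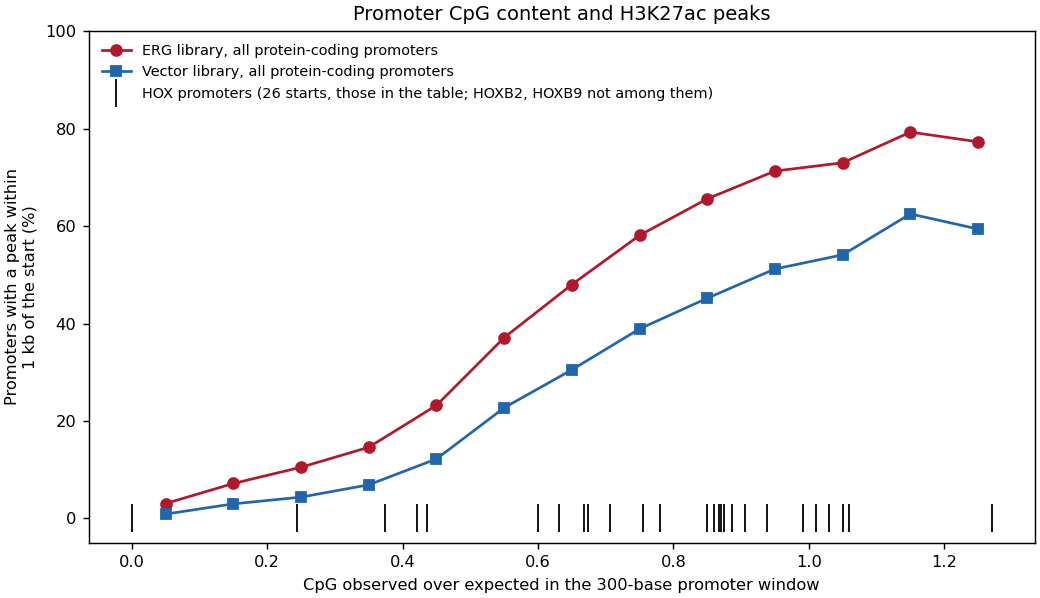
Share of protein-coding promoters with a peak within 1 kb of the start, in percent, against the CpG ratio of the 300-base window in bins with at least 100 promoters (red, ERG library; blue, Vector library), with the 26 HOX starts of the table, which lacks HOXB2 and HOXB9, as black ticks. The share climbs to 79.3% in the ERG library, against 62.5% in the Vector library in the bin from 1.1 to 1.2, while the ticks run from 0 to 1.27.

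Short motifs in these windows were searched on both strands as letters only. The ETS letters CCGGAAG were in 0 of the 27 HOX windows and 12.8% of all protein-coding windows. They are 1 form of the site that ERG and its relatives bind, and other forms were not searched. The GATA letters AGATAA were in 2 HOX windows, both of HOXA3, and in 7.91% of all. The letters TGATTNAT, joined sites of HOX proteins and their PBX partners, were in 2 HOX windows, of HOXA2 and HOXD11, and in 2.06% of all. No HOX window held more than 1 of the 3 motifs. A match or its lack says nothing about binding.

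The partners of HOX proteins were mixed. Of 9 genes of the PBX, MEIS and PKNOX families, homeodomain proteins that bind DNA jointly with HOX proteins, 2 had a gene-end peak in the ERG library, or 22.2% beside 45.8% of all genes, against 4 in the Vector library, or 44.4% beside 30.5% of all genes. PKNOX1 had one in both, with 110 fragments at the summit in the ERG library, against 46 in the Vector library, as did PBX3, with 82 in the ERG library, against 29 in the Vector library. MEIS2 and PBX2 had one in the Vector library alone, of 16 and 14 fragments, a class of 0.354% of all genes. An ERG-library peak lay 1.99 kb from an end of MEIS2 and 1.73 kb from an end of PBX2, just outside the window. MEIS1, the partner of HOXA9 in leukaemia, lay 823 kb from a peak in both libraries.

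Most activators of HOX genes carried a gene-end peak, against 45.8% (ERG library) and 30.5% (Vector library) of all protein-coding genes. Of 20 genes for KMT2A, its complex and other activators of HOX genes, 18 had one in the ERG library, or 90.0%, against 13 in the Vector library, or 65.0%. Those with the largest fold in the ERG library among genes marked in both were PSIP1, KAT7, NPM1 and KDM6A. PSIP1, which tethers KMT2A to chromatin, had a deposited fold of 10.6 in the ERG library, against 9.81 in the Vector library. KMT2A itself had 67 fragments at the summit in the ERG library, against 34 in the Vector library. The 5 genes with a peak in the ERG library alone were DOT1L, MEN1, RBBP5, WDR5 and MLLT3, of which RBBP5 had 59 fragments and MLLT3 29. A Vector-library peak lay 1.00 kb from an end of WDR5, at the edge of the window.

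Most Polycomb genes also carried a gene-end peak. Of 22, 18 had one in the ERG library, or 81.8% beside 45.8% of all genes, against 13 in the Vector library, or 59.1% beside 30.5% of all genes. EZH2, the methyltransferase of the lysine that H3K27ac occupies, had 93 fragments at the summit in the ERG library, against 65 in the Vector library. Its partner EED had 112 fragments in the ERG library, against 53 in the Vector library, and SUZ12 had 41 in the ERG library, against 28 in the Vector library. CBX8, EZH1, BMI1, CBX2 and PCGF2 had one in the ERG library alone, and BMI1, a stem cell regulator, had the most fragments of them, 82.

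Other homeobox genes also had few peaks. None of the 8 EVX and ParaHox genes, the nearest relatives of the clusters, had a gene-end peak in either library. Of 58 other homeobox and PAX genes, 6 had one in the ERG library, against 1 in the Vector library, which is 10.3% in the ERG library, against 1.72% in the Vector library. DLX1, a forebrain gene, had one in both, with 73 fragments at the summit in the ERG library, against 41 in the Vector library. OTX1, TLX3, PITX1, DLX2 and IRX1, genes of embryonic patterning, had one in the ERG library alone, with 15 to 35 fragments. A Vector-library peak lay 1.02 kb from an end of PITX1, just outside the window. Within 50 kb of gene ends, the median length covered by peaks was 3392 bp in the ERG library, against 979 bp in the Vector library, for activators of HOX genes. For Polycomb genes it was 2445 bp (ERG library) and 835 bp (Vector library), for cofactors 1186 bp (ERG library) and 405 bp (Vector library), and for other homeobox and PAX genes 0 bp in both. These values describe the lists, and no difference between lists was tested.

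**Figure D5:**
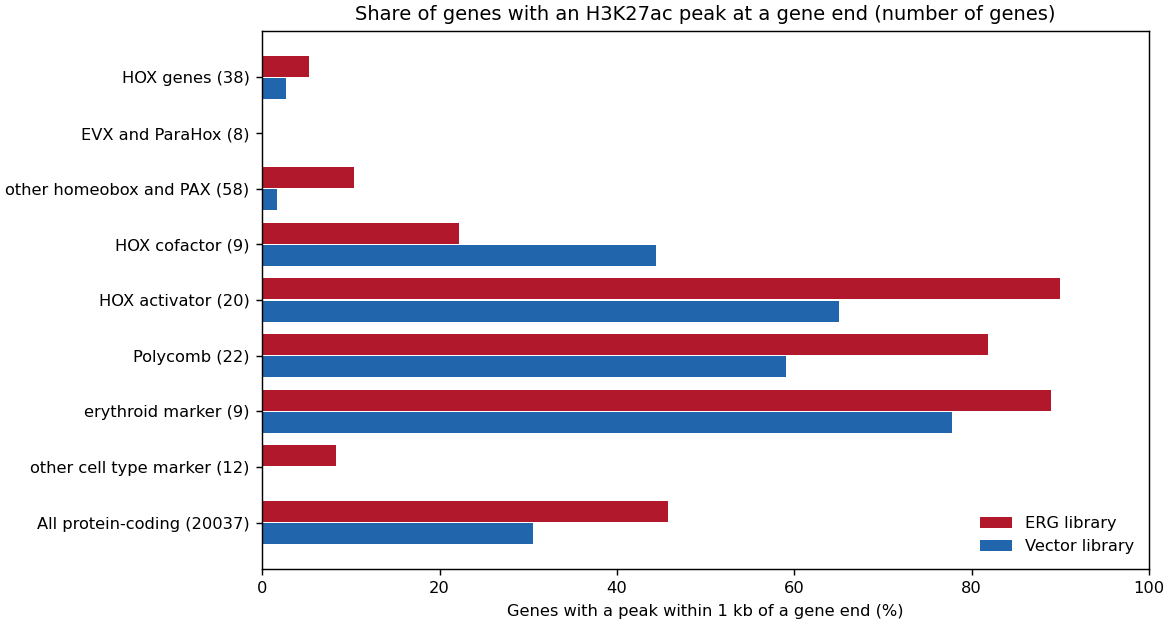
Share of genes with a peak within 1 kb of a gene end, in percent, for the HOX genes, 7 lists and all protein-coding genes (number of genes in brackets), with the ERG library in red above the Vector library in blue. The HOX genes stand at 5.26% in the ERG library, against 2.63% in the Vector library, EVX and ParaHox genes at 0 in both, and activators of HOX genes at 90.0% (ERG library) and 65.0% (Vector library).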

How the data were processed

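H3K27ac was profiled in 2 libraries, 1 per group. Per the submitters' processing notes, Bowtie2, MACS2, deepTools and hg38 were used; versions, settings and the use of an input are not given in the sources used here. For each library, the authors deposited 1 peak list, with a whole-number score (the −log10 q-value times 10), a fold (ratio) of summit fragments over local background, and a −log10 p-value and −log10 q-value at the summit. There were no replicates to pool. No read totals were used, so the genome level of fragments stands for depth, which was not measured.

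The numbers of fragments and of local background were recovered from the deposited fold and −log10 p-value, assuming the caller's pseudocount of 1 and a Poisson tail. Whole numbers were obtained for 99.9% of peaks in each list (relative tolerance of 0.0001 on the −log10 p-value). The calculation was tested on data simulated with the same formulas, which checks the arithmetic and not the assumed pseudocount and Poisson tail. Gene records and promoter windows came from RefSeq GRCh38.p14, which shares coordinates with hg38. The table of genes gives no strand, so the strand was taken from promoter windows of the same cluster. For distances, the start of a gene is the upstream end of its record, so internal starts, as of HOXA3, were not measured. Peaks were called shared from an overlap of 1 bp. Python 3.11.15, NumPy 2.4.6, SciPy 1.17.1, pandas 2.3.3 and matplotlib 3.10.9 were used.

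The members and lists were chosen with earlier results of these data known. Values were given for each HOX gene with a gene-end peak and each cluster peak, and of the lists for up to 6 genes marked in 1 library by covered length and up to 4 marked in both by fold. KMT2A, EZH2, SUZ12, MEIS1, the flanking genes farther out and the noncoding genes without peaks were named outside this rule, after their values were seen. 1 HOX gene of the rule is not reported here. Alternatives varied the windows, the lists and the scaling of the ERG library.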

Additional observations from a re-analysis of the deposited data

How the results depend on the processing

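With the ERG list limited to its 9161 highest-scoring peaks, HOXB9 was the 1 HOX gene with a gene-end peak in the ERG library, 0 had one in the ERG library alone, and the cluster windows held 1 ERG-library peak of 1106 bp. With the fragments of the ERG library scaled by the ratio of shared peaks, a setting chosen after seeing the data, the same values were found: 1 gene, 0 in the ERG library alone, 1 peak and 1106 bp. Keeping the better-scored 50% of each list, HOXB9 was again the 1 gene of the ERG library, with 1 peak of 1106 bp. The Vector library then had 0 genes, 0 peaks and 0 bp, so that 0 genes and 0 peaks were shared. HOXB9 thereby took the place of HOXB2 as the 1 gene marked in the ERG library alone. Fewer peaks enter these settings by construction. HOXB2 was thus called with the full list and with scaling to the Vector genome level alone, and not in these 3 settings. Windows of 2.5 or 0.5 kb, the start site alone, margins of 10 kb or none, the Vector genome level and a stricter overlap moved none of these counts or lengths by more than 1.5 times. In all, 52 values stayed within that limit, or within the interval of the HOXB9 ratio, and 16 did not. This tally compares values and not which gene is counted. Some values could not move, such as Vector-library counts where the ERG list alone was changed. No paired analysis was possible because each group has 1 library, and no library could be left out. Depth limits what is seen: peaks of 15 fragments, as at HOTAIRM1 and HOXD, lie near the lower end of what the ERG library called.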
